A study of Coturnix japonica with 29 samples.

Results

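The 80 genes described here had few reads in the blood of saline-injected female Japanese quail (Coturnix japonica) and more in the blood of females injected with lipopolysaccharide (LPS), by median level. They were taken from 21561 genes in a table of read counts. Adult females spent 3 h with a male, brachial vein blood was then spun, and RNA of the red part left after the plasma was removed was sequenced. The 29 libraries fall into 3 groups. In F_LPS (10 libraries) the female received LPS and her male saline. In M_LPS (10 libraries) the female received saline and her male LPS. In M_SAL (9 libraries) both birds received saline. Strain, genotype and exact age are not stated in the labels, and each library is listed as a sample of its own without a statement that each is a different bird, so p-values measure the spread between these libraries, which may be technical. The red part was not sorted by cell type. In such bulk RNA, more or fewer cells of a type and more or less RNA per cell cannot be told apart. Library totals ran from 8898747 to 14366101 reads.

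LPS comes from the outer wall of Gram-negative bacteria. Vertebrate cells sense it through Toll-like receptor 4 with CD14 and MD-2, which activates NF-kB and raises the transcription of cytokines, chemokines and genes that limit the response. Bird red cells keep their nucleus and transcribe genes in the circulation, as do bird thrombocytes, heterophils and lymphocytes, so any of them could carry such transcripts. The table lists genes by Ensembl identifier, and nothing at hand ties those identifiers to gene symbols. No role is therefore given to any member, the blood cell markers were not looked up, and the labelled tissue was not checked against them. The members are called by rank, with identifiers for the first 2, ENSCJPG00005012970 and ENSCJPG00005019713.

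The members were chosen on these same libraries, by level. Each count was divided by its library's total and scaled to CPM (counts per 1000000 reads), so that 1 CPM stood for 8.90 to 14.4 reads. A gene had to have a median below 10 CPM over the 19 saline-injected libraries and a median of 5 CPM or more over the 10 F_LPS libraries, which left 966 genes. These were ranked by the median log2(CPM + 1) in F_LPS minus that in the saline-injected libraries, and the first 80 were taken. The difference ran from 5.41 at rank 1 to 1.20 at rank 80, with a median of 2.41, and the gene ranked 81 stood at 1.16. The member closest to the upper limit in saline-injected birds had a median of 9.89 CPM there, and the closest gene kept out by that limit had 10.7 CPM. The member closest to the lower limit in F_LPS had a median of 5.09 CPM, against 4.53 CPM in the closest gene kept out. As many as 91 genes over 10 CPM in saline-injected birds showed a difference as large as that of the last member. Differences between F_LPS and the saline-injected groups were thus fixed by the choice and are given as a description.

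By the levels that chose them, 16 members differed by more than 4 on this log2 scale, 14 by 3 to 4, 23 by 2 to 3 and 27 by less than 2. The median level in F_LPS ranged from 5.09 to 225 CPM over the members, with a median of 21.4 CPM. In the saline-injected libraries it ranged from 0.101 to 9.89 CPM, with a median of 2.45 CPM. Near-silent was a fair name for part of the list: 19 members had a saline median under 1 CPM, 40 stood from 1 to 5 CPM and 21 from 5 to 10 CPM. Of the 80, 61 had at least 1 read in every saline-injected library, and 5 had no read in 5 or more of them. A library with no read of a gene still allows a level of up to 0.209 to 0.337 CPM, which is 3 reads of the deepest and of the shallowest library, counting error only.

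Summed over the 80 genes, the members took 0.286% of the reads in the median F_LPS library, against 0.0308% in the median M_LPS library and 0.0368% in the median M_SAL library. In F_LPS the lowest share was 0.114% and the highest 1.63%. The M_LPS libraries lay between 0.0246% and 0.0687%. In M_SAL, replicates 1 and 3 stood apart at 0.498% and 0.597%, inside the F_LPS range and above 8 of its 10 libraries, while the other 7 lay between 0.0246% and 0.0545%. The values below therefore mostly set these 2 libraries apart from the other 7 of M_SAL. The 2 are placed in M_SAL by their labels alone, which nothing else in the sources used here verifies. No single member carried the sum: the members ranked 10 and 14 held the most, with a median of 7.94% and 5.95% of the member reads of an F_LPS library, and the 10 leading members held 40.2%.

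**Figure D1:**
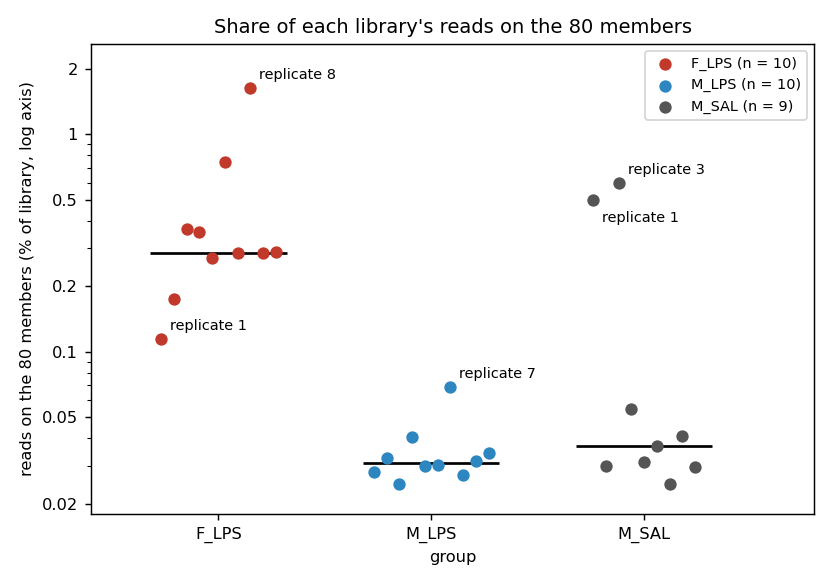
Share of each library's reads that fell on the 80 members, in percent on a log axis, with 1 point per library and a bar at the group median. The F_LPS libraries lie from 0.114% to 1.63% and the M_LPS libraries from 0.0246% to 0.0687%, while M_SAL replicates 1 and 3 lie at 0.498% and 0.597%, away from the other 7 M_SAL libraries.

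The member ranked 1, ENSCJPG00005012970, had the widest gap. Its lowest, median and highest levels were 16.0, 54.1 and 190.1 CPM in F_LPS, 0.0949, 0.318 and 0.851 CPM in M_LPS and 0, 0.277 and 7.07 CPM in M_SAL. The M_SAL libraries other than replicates 1 and 3 reached no more than 1.56 CPM. Every F_LPS library lay above every saline-injected one in this gene. The members ranked 3 and 4 were the others with no overlap. Rank 3 stood at 24.2, 58.3 and 352 CPM in F_LPS, 0.337, 1.13 and 3.09 CPM in M_LPS and 0.0884, 0.582 and 19.2 CPM in M_SAL, where the 7 libraries other than replicates 1 and 3 reached 2.47 CPM. Rank 4 had a higher saline level, at 42.2, 137 and 299 CPM in F_LPS, 1.31, 4.73 and 7.58 CPM in M_LPS and 2.86, 4.60 and 22.1 CPM in M_SAL, where those 7 reached 6.14 CPM. These 3 of 80 were the members for which the groups did not overlap, a pattern found for 0.0807% of the 9918 genes tested.

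Without M_SAL replicates 1 and 3 the picture was wider. For 33 of the 80 members all 10 F_LPS libraries lay above all 17 other saline-injected libraries, which held for 1.10% of the genes tested. A further 35 members had 6 to 9 F_LPS libraries above them all, and 12 had 5 or fewer. How many of all genes fell in these classes was not counted, so the 35 and the 12 have no background. ENSCJPG00005019713, ranked 2, was one of the 33. Its lowest, median and highest levels were 27.3, 117 and 421 CPM in F_LPS, 0.279, 2.19 and 10.1 CPM in M_LPS and 0.616, 2.21 and 8.38 CPM in the 7 other M_SAL libraries. M_SAL replicates 1 and 3 held 132 and 151 CPM of it, above the F_LPS median. The member ranked 16 was near 0 in these saline-injected libraries, at 1.88, 18.7 and 717 CPM in F_LPS, 0, 0.136 and 0.464 CPM in M_LPS, and no more than 0.368 CPM in the 7 other M_SAL libraries. M_SAL replicates 1 and 3 held 96.2 and 110.2 CPM of it, above 9 of the 10 F_LPS libraries. The member ranked 19 stood at 4.69, 17.2 and 47.5 CPM in F_LPS, 0, 0.0499 and 0.300 CPM in M_LPS, and up to 0.458 CPM in the 7 other M_SAL libraries, with 1.55 and 4.998 CPM in M_SAL replicates 1 and 3. Near the end of the list the member ranked 78, also one of the 33, was low and narrow in range, at 3.37, 5.88 and 16.2 CPM in F_LPS, up to 2.33 CPM in M_LPS and up to 2.02 CPM in the 7 other M_SAL libraries, with 4.45 and 4.31 CPM in M_SAL replicates 1 and 3.

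Several abundant members separated from the 17 other saline-injected libraries, or nearly did. Rank 10 stood at 23.7, 225 and 1546 CPM in F_LPS, 0.372, 9.41 and 28.9 CPM in M_LPS and up to 20.2 CPM in the 7 other M_SAL libraries. Its lowest F_LPS library lay below the highest M_LPS library. Rank 14 stood at 25.96, 166 and 1656 CPM in F_LPS, 4.42, 8.43 and 19.4 CPM in M_LPS and up to 18.5 CPM in the 7 other M_SAL libraries, with no overlap among these. Rank 6 stood at 61.7, 132 and 363 CPM in F_LPS, 1.90, 4.27 and 20.3 CPM in M_LPS and up to 7.79 CPM in the 7 other M_SAL libraries, likewise with no overlap. Rank 5 stood at 19.9, 41.5 and 241 CPM in F_LPS, 0.337, 0.656 and 3.63 CPM in M_LPS and up to 2.66 CPM in those 7, while M_SAL replicates 1 and 3 held 64.0 and 63.3 CPM, above the F_LPS median. The same 2 libraries held 616 and 872 CPM of rank 10, 761 and 1088 CPM of rank 14 and 96.8 and 27.1 CPM of rank 6.

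**Figure D2:**
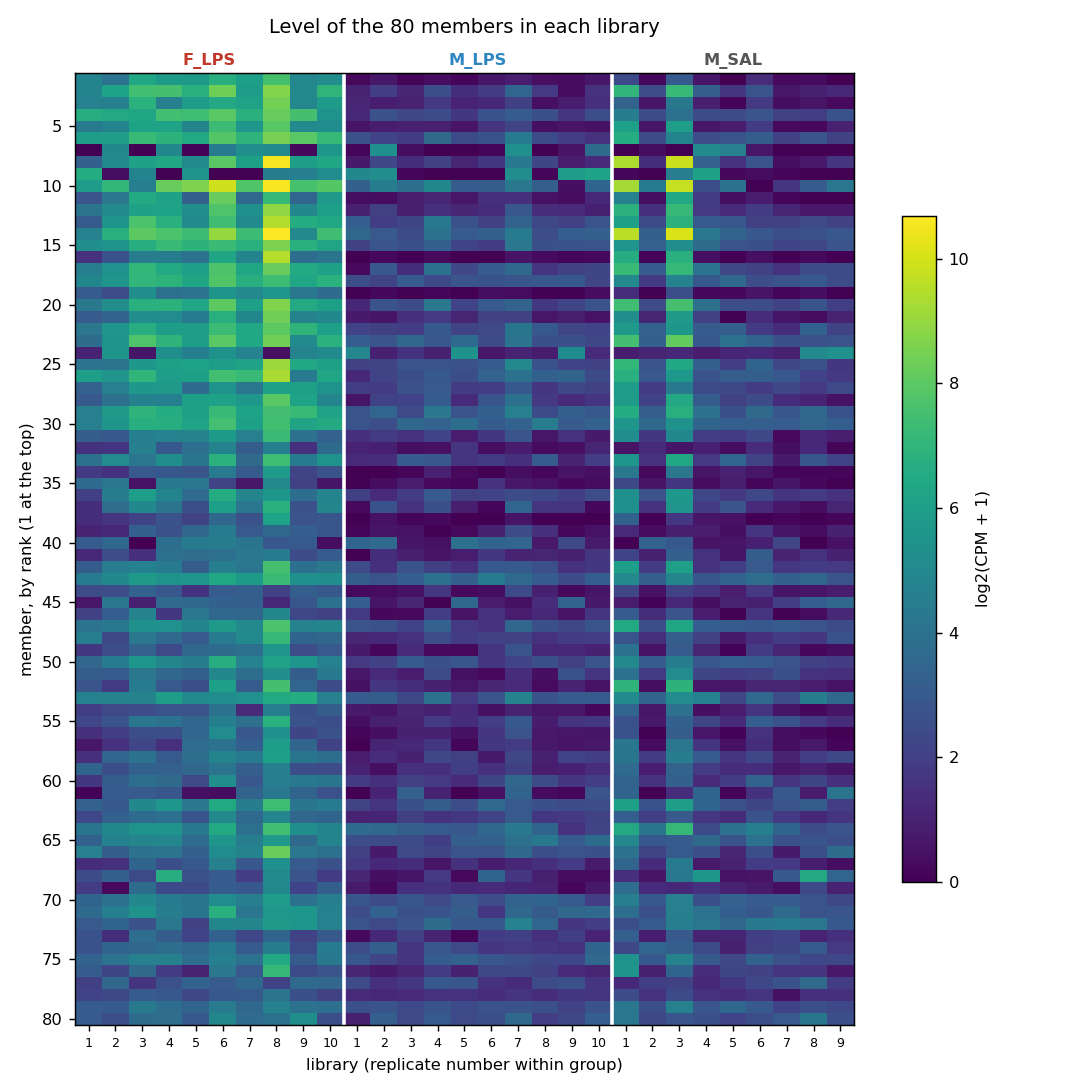
Level of each member (rows, rank 1 at the top) in each library (columns, by group and replicate number), as log2(CPM + 1). F_LPS replicate 8 is the highest F_LPS library for 59 of the 80 members, M_SAL replicates 1 and 3 resemble F_LPS columns in many rows, and a few rows are dark in some F_LPS libraries.

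Counts were also tested across all genes with edgeR's quasi-likelihood test, all 3 groups in 1 fit, and all 80 members passed its filter on low counts. In F_LPS against M_LPS 73 members were called higher at a Benjamini-Hochberg adjusted p below 0.05, where 4.40% of all tested genes were, and the median log2 fold change was 3.42 over the members and -0.01 over all genes. In F_LPS against M_SAL 23 members were called higher, where 1.70% of all tested genes were, and the medians were 1.72 and -0.02. Without M_SAL replicates 1 and 3 that count was 70, with 3.56% of genes called, and the member median was 3.63. Without replicate 1 alone it was 39, with 2.33% of genes called, and without replicate 3 alone 35, with 2.23%. For ENSCJPG00005019713 the log2 fold change in F_LPS against M_SAL was 2.27 with all libraries and 5.65 without the 2. Both contrasts entered the choice of members, and they share the F_LPS libraries. DESeq2 called 36 members higher in F_LPS against M_SAL, with 2.38% of genes called. limma voom, here with a quality weight for each library, called 57, with 2.82%. Nothing is read from these counts. The 7 members not called against M_LPS were the 6 described next and the member ranked 77.

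For 6 members the label did not hold in either saline-injected group. In the genes ranked 7, 9, 24, 40, 45 and 61, some libraries of every group were at 5 CPM or more and the others at 4.19 CPM or less, most of them near 0. The range of the high libraries in F_LPS overlapped that in both saline-injected groups for all 6. At rank 40, libraries at 3.69 and 4.19 CPM counted as low, and the lowest high library held 6.55 CPM. Ranks 24, 45 and 61 also had libraries from 1 to 5 CPM. The 6 are called all-or-none members here, a loose name for those 4. They were picked out after their values were seen as members with at least 2 F_LPS libraries under 1 CPM and at least 3 of the 17 other saline-injected libraries at or above the F_LPS median. The same description fitted 19 of the 966 genes that met both level limits. With group means in place of medians in the ranking, the genes at ranks 7, 9, 24, 40 and 45 moved to 59, 79, 61, 78 and 74, and the gene at rank 61 left the first 80. The label also failed against M_SAL alone at rank 68, with medians of 5.63 CPM in F_LPS and 6.67 CPM in M_SAL. Its edgeR log2 fold change there was 0.02. Rank 72 had medians of 21.9 CPM in F_LPS and 17.1 CPM in M_SAL, so it was not near-silent in M_SAL. Rank 72 met the saline limit because M_LPS, pooled with M_SAL, was lower. The M_SAL median of rank 68 was itself under the limit of 10 CPM, and its lower M_LPS levels lowered the pooled median used in the ranking.

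The member ranked 7 was high in 6 of 10 F_LPS libraries, at 20.3 to 49.3 CPM, in 3 of 10 M_LPS libraries, at 12.7 to 40.4 CPM, and in 2 of 9 M_SAL libraries, at 24.5 and 33.4 CPM. All other libraries were at 0.550 CPM or less, and F_LPS replicates 1 and 3 had no read. The median of the high libraries was 31.1 CPM in F_LPS and 40.0 CPM in M_LPS, and the high libraries of the 3 groups overlapped in level. The member ranked 9 was high in 6 of 10 F_LPS libraries, at 21.8 to 96.5 CPM, in 5 of 10 M_LPS libraries, at 31.2 to 72.8 CPM, and in 2 of 9 M_SAL libraries, at 23.1 and 68.7 CPM. No library of it lay between 0.327 and 21.8 CPM. F_LPS replicates 8 and 10 were high for both members, while F_LPS replicates 2, 4, 6 and 7 were high for rank 7 alone and replicates 1, 3, 5 and 9 for rank 9 alone.

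The members ranked 24 and 45 switched together. At a limit of 5 CPM both were high in the same 12 libraries and low in the same 17, namely 7 of 10 in F_LPS, 3 of 10 in M_LPS and 2 of 9 in M_SAL. High libraries of rank 24 held 23.4 to 45.5 CPM in F_LPS, 29.9 to 43.1 CPM in M_LPS and 33.0 and 41.3 CPM in M_SAL. The member ranked 77 shared their state in 25 of 29 libraries, at 2.07 to 11.7 CPM in F_LPS, 1.39 to 6.68 CPM in M_LPS and 1.26 to 12.1 CPM in M_SAL. The identifier numbers of these 3 members lie within 5 of each other, and reads shared between near-identical copies could not be told apart in this table. The member ranked 40 was at 5 CPM or more in 8 of 10 F_LPS, 5 of 10 M_LPS and 2 of 9 M_SAL libraries. The member ranked 61 was in 7 of 10, 3 of 10 and 4 of 9. F_LPS replicate 8, the highest library for most members, held 0.359 CPM of rank 24, the lowest of F_LPS, and M_SAL replicates 1 and 3 held 0.773 and 1.38 CPM. Other members also had libraries far from most of their group. Rank 68 stood at 85.5 and 49.9 CPM in M_SAL replicates 8 and 4 and 99.9 CPM in F_LPS replicate 4. Rank 10 had no read in M_SAL replicate 6 and 0.372 CPM in M_LPS replicate 9.

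**Figure D3:**
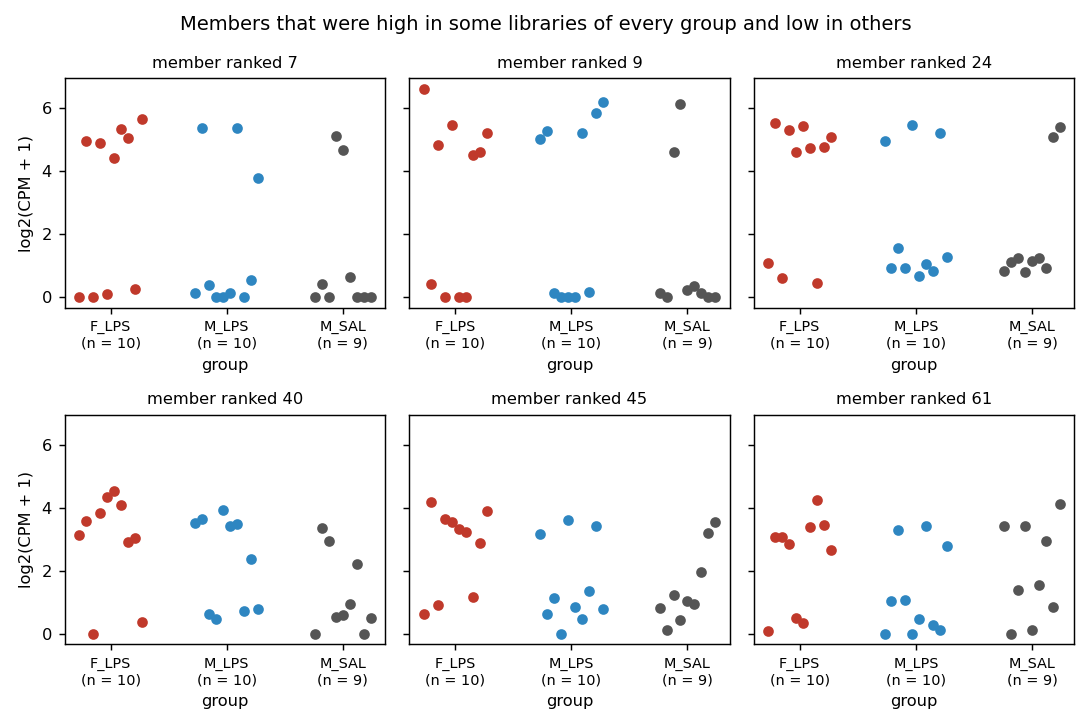
Level of the 6 all-or-none members in each library, as log2(CPM + 1), with 1 point per library and a panel per member. Libraries at 5 CPM or more and libraries under 1 CPM are present in F_LPS, M_LPS and M_SAL. In the member ranked 7 the high libraries hold 20.3 to 49.3 CPM in F_LPS, 12.7 to 40.4 CPM in M_LPS and 24.5 to 33.4 CPM in M_SAL.

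F_LPS libraries differed widely from each other. The ratio of the highest to the lowest F_LPS library was 15.9 in the median member with reads in all of them, and ran from 3.45 at rank 79 to 382 at rank 16. F_LPS replicate 8 was the highest F_LPS library for 59 of 80 members (73.8%), where it was highest for 8.79% of the 6905 genes with an F_LPS median of 5 CPM or more. F_LPS replicate 6 was highest for 11 members. F_LPS replicate 1 was the lowest for 43 members (53.8%, against 6.17% of those genes). Replicate 8 also had the lowest TMM scaling factor of all libraries, 0.776. The CPM values here do not use that factor, and scaling by it would raise the levels of replicate 8. What made the factor low was not tested.

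The size of the excess in replicate 8 differed between members. At rank 16 it held 717 CPM, against 80.2 CPM in replicate 6 and 1.88 CPM in replicate 1. At rank 8 the same 3 libraries held 1511, 245 and 9.12 CPM. At rank 4 they held 299, 251 and 99.7 CPM, a much narrower spread. Members varied together over F_LPS libraries: without the all-or-none ones, the median Pearson r between 2 of the 74 members was 0.70 over 10 F_LPS libraries, 0.56 without replicate 8, and 0.23 over the 17 other saline-injected libraries. In the 80 genes next in the ranking the median r was 0.07 and 0.09 over the same F_LPS and saline-injected libraries. Those 80 were taken whole, with no all-or-none genes removed, and had smaller differences by the ranking, so the 2 lists are not matched. These r values are a description, and both members of a pair share their libraries and scaling. Members were chosen for low saline levels, where counting error is larger and can lower r. The F_LPS and saline values of r are therefore not matched either.

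M_SAL replicates 1 and 3, labelled as saline for both birds, resembled F_LPS for many members and not for others. Replicate 1 lay inside the F_LPS range for 72 of 80 members and replicate 3 for 69, where each of the other 17 saline-injected libraries did so for 11 to 32. Members were chosen for low saline medians, which lowers the counts of the 17. How often the 2 libraries lay inside the F_LPS range over all genes was not counted, so these counts have no background. Both lay above all 17 for 57 members, where they did for 4.37% of all tested genes, and both lay above the F_LPS median for 36, where they did for 28.2%. The 2 libraries were set apart by their high levels of these same members, and the members were chosen for low saline medians. Both choices raise these counts, so nothing is read from their excess over all genes. To set members side by side, the mean log2(CPM + 1) of these 2 libraries was placed between the median of the 17 others, set to 0, and the F_LPS median, set to 1. Over the 74 members without the all-or-none ones the median position was 1.08, with 40 members over 1, 26 from 0.5 to 1 and 8 below 0.5.

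Members at the upper end were much higher in these 2 libraries than in most injected birds. Rank 8 held 667 and 912 CPM there, against an F_LPS median of 67.9 CPM. Ranks 10 and 14, given above, were likewise higher there than the F_LPS median. Rank 52 had the highest position, 2.77, with 122 and 119 CPM in the 2 libraries and an F_LPS median of 7.06 CPM. For 8 members, ranked 8, 14, 16, 42, 47, 52, 57 and 75, both libraries lay above all 9 F_LPS libraries other than replicate 8. The share of all genes with this pattern was not counted, so the 8 have no background.

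Other members stood lower in these 2 libraries. For the members ranked 1, 3, 4 and 32 both libraries lay below the lowest F_LPS library. Rank 1 held 4.25 and 7.07 CPM in them, against 16.0 CPM in the lowest F_LPS library, and rank 4 held 22.1 and 14.0 CPM, against 42.2 CPM. Rank 32 held 0.483 and 0.517 CPM, close to the 0.773 CPM median of the 17 others, while F_LPS ran from 1.8 to 26.1 CPM with a median of 9.89 CPM. Both libraries stayed within the range of the 17 others for 13 members, which were the 6 all-or-none ones and those ranked 32, 39, 44, 60, 68, 72 and 74. How often both libraries lay below every F_LPS library, or within the range of the 17, was not counted over all genes. The 2 libraries also differed from each other: replicate 1 held over 3 times the level of replicate 3 for 6 members with more than 1 CPM in both, among them ranks 6, 69 and 76, whose identifier numbers are close to each other. These held 96.8 and 27.1 CPM, 12.9 and 1.29 CPM and 45.2 and 9.91 CPM in replicates 1 and 3. Replicate 3 held over 3 times the level of replicate 1 for 4 such members, ranked 11, 19, 68 and 72.

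**Figure D4:**
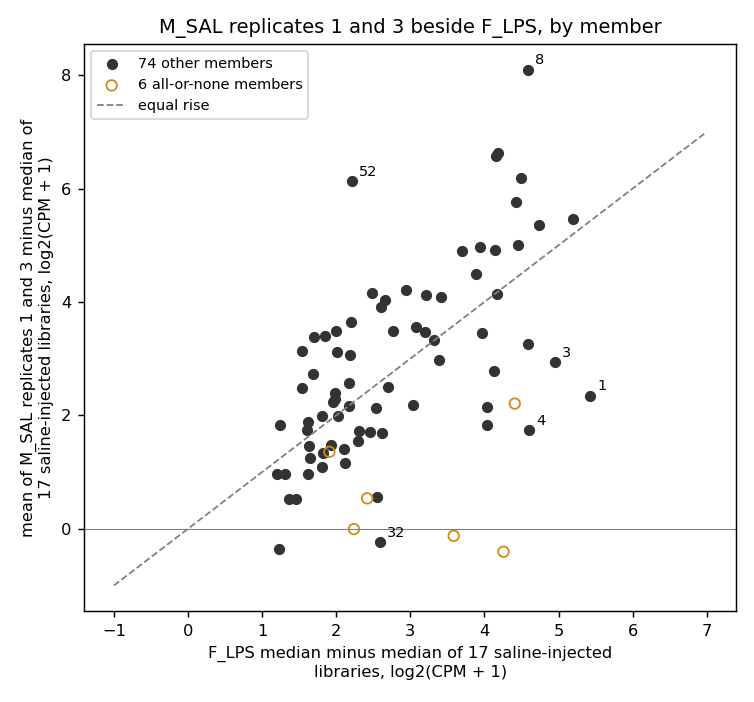
Each point is a member. The x axis gives the F_LPS median and the y axis the mean of M_SAL replicates 1 and 3, both minus the median of the 17 other saline-injected libraries in log2(CPM + 1), and ranks are printed beside a few points. Members ranked 8 and 52 lie above the line of equal rise, members ranked 1, 3 and 4 below it, and rank 32 lies near 0 on the y axis.

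The comparison of M_LPS with M_SAL asks whether meeting an LPS-injected male alters these genes in a saline-injected female, and the ranking did not use it, since it pooled both groups. By median log2(CPM + 1), the 2 groups were close for most members, with or without replicates 1 and 3 of M_SAL. M_LPS had the higher median for 41 members and the 7 other M_SAL libraries for 39. The difference of median log2(CPM + 1) was within 1 for 76 of 80, with a median of 0.01. With all 9 M_SAL libraries it was within 1 for 75, with a median of -0.14. The choice kept the pooled saline median below 10 CPM, which limits such differences, and the share over all genes was not counted. Adding 1 to each CPM limits them further, since 2 levels under 1 CPM cannot differ by more than 1 on this scale. The pooled saline median was under 1 CPM for 19 members, so a difference within 1 says little about those. The edgeR test called 0 of 80 members at an adjusted p below 0.05, and 0% of the 9918 genes. At an unadjusted p below 0.05 it had 51 members lower in M_LPS and 0 higher, where 2.99% of all genes were lower and 1.31% higher, and the median log2 fold change was -1.54 over the members and -0.01 over all genes. Without M_SAL replicates 1 and 3, 1 member was lower and 0 higher at an unadjusted p below 0.05, against 1.37% and 1.25% of all genes, and the member median was 0.10. Those 2 libraries stand apart by their high levels of these same members. Leaving them out was therefore bound to raise the member fold changes, and nothing is read from that shift. Without replicate 1 alone, 25 members were lower at that threshold, against 1.71% of genes, and the median was -0.82. Without replicate 3 alone, 28 members were lower, against 2.20% of genes, and the median was -1.10. DESeq2 called 13 members lower, where 0.302% of genes were, and 0 members without the 2 libraries. In a fit of these 2 groups alone, 65 members passed the filter on low counts and 0 were called. limma voom, which here weighted each library by quality, called 0 members with or without them. It had 2 members lower at an unadjusted p below 0.05 in each case.

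ENSCJPG00005012970 had a log2 fold change of -1.91 in M_LPS against M_SAL (SE 0.78, edgeR adjusted p = 0.936), and 0.12 (SE 0.74, edgeR adjusted p = 0.9997) without M_SAL replicates 1 and 3. ENSCJPG00005019713 had -3.56 (SE 0.94, edgeR adjusted p = 0.427), and -0.19 (SE 0.66, edgeR adjusted p = 0.9997) without them. With all libraries 7 members had a fold change above 0, and without the 2 libraries 47 did. The share over all genes was not counted. The median over all genes was -0.008 with all libraries and 0.001 without the 2. The exception at the unadjusted threshold was rank 68, at -3.41 (SE 1.02) and -3.60 (SE 1.05) without the 2 libraries. It stood at 0.190, 0.719 and 9.89 CPM in M_LPS and 0.442, 6.67 and 85.5 CPM in M_SAL, with overlapping groups, and the highest values were single libraries. The SE of the log2 fold change had a median over members of 0.69, and 0.59 without the 2 libraries. The 95% interval at that SE reached about 1.36 on either side with all libraries and 1.16 without the 2. This width is not a limit of detection, since larger changes, such as -3.56 for ENSCJPG00005019713, were not called either.

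**Figure D5:**
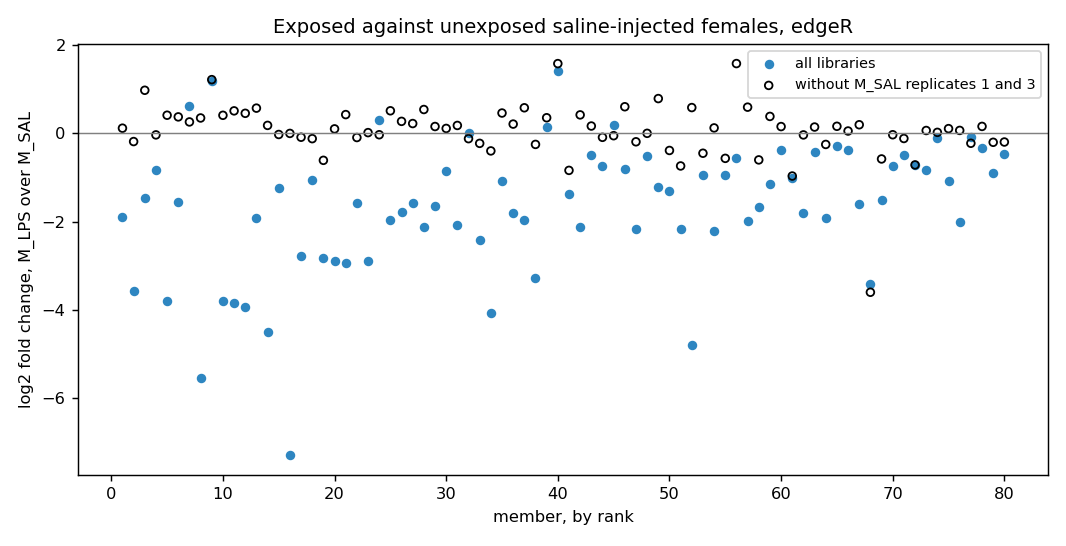
Log2 fold change of each member in M_LPS over M_SAL from edgeR, by rank, with all libraries (filled) and without M_SAL replicates 1 and 3 (open). The median over members is -1.54 with all libraries and 0.10 without the 2, and rank 68 is at -3.41 and -3.60.

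Among the saline-injected libraries that did not stand apart, M_LPS replicate 7 had the most reads on the members, 0.0687%, and was the highest of the 17 for 33 of 80 members, where it was the highest for 4.62% of the 6905 genes. It held 19.3 CPM of rank 8, against an M_LPS median of 1.96 CPM, and 20.3 CPM of rank 6, against 4.27 CPM. For rank 1 it held 0.851 CPM, below the lowest F_LPS library at 16.0 CPM. It held 45 members at 5 CPM or more, against a median of 21 in M_LPS and 53 to 77 in F_LPS.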

How the data were processed

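RNA sequencing of 29 blood libraries was analysed. The deposited file holds raw counts, whole numbers of reads for each gene. CASAVA 1.8.2, HISAT2 and DESeq2 are listed, per the submitters' processing notes. How reads were counted, on which build and with which strand setting is not given in the sources used here, so reads of overlapping, antisense or near-identical genes could not be told apart. Columns were tied to samples by title, and replicate numbers follow accession order and pair no libraries. The reference table held 20956 quail genes, none with an Ensembl identifier, so 0 of 21561 identifiers were matched and the gene and marker lists were not used. The members, lists and tests were chosen with earlier results of these data known. By the rule for names, the first 2 members carry identifiers.

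CPM used the column total. Counts were filtered with filterByExpr, scaled by TMM and tested with edgeR 4.0.16 in R 4.3.3 (robust quasi-likelihood, Benjamini-Hochberg adjustment over all 9918 genes, threshold 0.05). The test was checked on simulated data. The SE is the fold change over the root of its F. Alternatives were RLE and upper-quartile scaling, no filter, the compared groups alone, DESeq2 1.42.0, limma 3.58.1 voom, and libraries left out.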

Additional observations from a re-analysis of the deposited data

Results flagged for a closer look

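Library values were searched for 1 library far from the others of its group, in 9 sets (the share of reads on the members and the levels of the first 2 members, in 3 groups). In 4 sets such a library was found. The limit used would give 0.45 by chance if values were normally distributed. The search used unlogged levels, which are skewed upward, so no excess over chance is read from this. F_LPS replicate 8 had 1.63% of its reads on the members, against 0.749% in the next F_LPS library, a gap of 0.58 of the range in F_LPS. The same library held 190.1 CPM of ENSCJPG00005012970, against 105 CPM in the next, a gap of 0.49 of the range. M_LPS replicate 7 had 0.0687% of its reads on the members, against 0.0406% in the next M_LPS library, a gap of 0.64 of the range. It held 10.1 CPM of ENSCJPG00005019713, against 4.99 CPM in the next, a gap of 0.52 of the range. The sets share libraries and genes.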

How the results depend on the processing

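The number of members called higher in F_LPS against M_SAL, 23, was 36 with DESeq2 and 57 with limma voom. Without M_SAL replicates 1 and 3 it was 70 (70 with DESeq2 and 63 with voom on the same libraries). Without the 2 libraries DESeq2 called 438 of 10135 genes higher and voom 338. The compared groups alone had 78 members tested and 15 called, with 87 of 9382 genes called higher. With each library left out in turn 18 to 39 members were called. The lowest count came with 138 of 9886 genes called higher and the highest with 234 of 10026. The median log2 fold change of the members in F_LPS against M_SAL, 1.72, was 2.69 with voom on all libraries. It was 3.63 without the 2 libraries, 3.62 with DESeq2 and 3.00 with voom on the same libraries. In F_LPS against M_LPS the 73 members called ranged from 67 to 73 with each library left out and from 69 to 74 under the other alternatives. The 67 came with 366 of 9886 genes called higher, the 69 with 444 of 9918 and the 74 with 570 of 10135. For that comparison the compared groups alone had 78 members tested and 70 called, with 394 of 9340 genes called higher. In M_LPS against M_SAL DESeq2 called 31 genes, 13 of them members, and each library left out gave 0 or 1 gene and 0 members. The member median there, -1.54, was -0.55 with voom, and 0.10, 0.11 with DESeq2 and -0.068 with voom without the 2 libraries. ENSCJPG00005012970 turned from -1.91 to 0.12, to 0.13 with DESeq2 and to 0.51 with voom without them, and passed no test in M_LPS against M_SAL. ENSCJPG00005019713 passed in that comparison with DESeq2 alone (-3.59, adjusted p = 0.0085, against 0.427 with edgeR and from 0.420 to 0.999982 under the other alternatives with every library or without the 2). In F_LPS against M_SAL it missed the threshold at 2.27 (adjusted p = 0.238) and passed at 4.62 with voom, and without the 2 libraries at 5.65, 5.66 with DESeq2 and 5.32 with voom; the other 34 alternatives missed it, and those that left out 1 library gave 1.86 to 3.00. The cause of these shifts was not tested. The 2 libraries stand apart by their levels of these members, so their removal was bound to move the values given without them. The rule kept 74 to 80 of its 80 members with each library left out, 77 on TMM-scaled CPM, 78 without the 2 libraries, 78 with a pseudocount of 0.25 and 75 with means in the ranking. With means the all-or-none members ranked 59 or lower, and rank 61 left the list. The median shares of reads on members were 0.293% in F_LPS, 0.0298% in M_LPS and 0.0322% in M_SAL on TMM-scaled totals, and 0.276%, 0.0241% and 0.0362% in that order without the all-or-none members. In M_SAL without the 2 libraries the share was 0.0313%. The fits on DESeq2 or voom without the 2 libraries, the medians and the share without all-or-none members were added after seeing the data. No paired analysis was possible because the labels give no replicate numbers. Some library titles share a number and differ only in added letters, within F_LPS and between F_LPS and M_LPS. What the shared numbers and letters mean is not stated in the sources used here.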

Other observations

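Members often had identifiers with close numbers. Of the 80, 29 lay within 5 of another member's number, in 12 runs of 2 to 4 members, where 2 of the next 80 genes in the ranking did. The sources used here do not say whether these numbers follow position in the genome. The median Pearson's r within a run lay between 0.18 and 0.98 over F_LPS and between -0.07 and 0.90 over the 17 other saline-injected libraries, where over all pairs of the 74 members without the all-or-none ones it was 0.70 and 0.23. For ranks 8 and 16 Pearson's r of log2(CPM + 1) was 0.98 over 10 F_LPS libraries and 0.81 over the 17 other saline-injected libraries, and for ranks 28 and 57 it was 0.98 and 0.90. For ranks 1 and 3 it was 0.88 and 0.70. The pair ranked 15 and 35 was at 0.18 and -0.07, and the run of ranks 58, 64 and 79 at 0.75 and 0.18. In the run of ranks 17, 20, 29 and 40, rank 40 is an all-or-none member, and the median r was 0.49 over F_LPS. These values are a description over libraries that chose the members, and reads shared between near-identical copies could not be told apart. Counting error at the low saline levels can lower r there, and so can leaving out M_SAL replicates 1 and 3.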
